A study of Mus musculus with 3 samples.

Results

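The circadian clock genes Clock, Per1, Per2, Per3, Cry1, Cry2, Nr1d1, Nr1d2 and Dbp were examined in H3K9ac CUT&Tag data of mouse haematopoietic stem cells (HSCs). The 9 genes were taken by name from the 21883 protein-coding records of the reference table, and every summit inside a record or within 20 kb of its ends was used. These windows held 25 of 33248 summits in the library labelled young HSC, 84 of 108787 in that labelled old HSC and 29 of 45386 in that labelled old HSC ABC. The genes were chosen by their part in the clock after the summits of Nr1d2 in the old- and young-labelled lists had been seen, so all values below are a description of these libraries and were not tested.

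H3K9ac is an acetylation mark of histone H3 found at active promoters and enhancers. In CUT&Tag an antibody directs a transposase to the mark, and the DNA cut out there is sequenced. The cells were sorted HSCs from bone marrow of wild-type mice, 50000 cells per assay, aged 2 to 4 months for the young group and 18 to 24 months for both old groups. The labels do not spell out ABC or say whether marrows were pooled, and there was 1 library per group, so no difference had a replicate check. The peak names hold sample names that go against the labels: an old HSC sample is named in the young-labelled list, an old HSC ABC sample in the old-labelled list and another old HSC sample in the ABC-labelled list. Each direction below therefore holds for the libraries as labelled, and under the inner names no list is a young one.

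The circadian clock is a feedback loop of transcription that runs in most cells. CLOCK and its partner BMAL1 (gene Arntl) bind E-box elements and drive the Per, Cry, Nr1d and Dbp genes. PER and CRY proteins then repress CLOCK and BMAL1, the nuclear receptors REV-ERB alpha and beta (genes Nr1d1 and Nr1d2) repress Arntl, and DBP activates genes with a D-box. Timing of this kind is known in bone marrow, where the release of HSCs into blood follows a daily rhythm. The sources used here do not give the time of day at which marrow was taken.

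A start summit is a summit within 1 kb of a start site of the RefSeq promoter table (GRCm38.p6, the build with mm10 coordinates). The table held 8 of the 9 genes. Per2 was not matched there, and for it a summit counted if it lay 1 kb or less from a record end. The promoters of Nr1d2, Nr1d1, Per3 and Cry1 are shown because their start summits differed between libraries in different ways, or, for Cry1, were present in all 3. Each is the 250 bases before the start site, 5′ to 3′ on the minus strand, where all 4 genes lie, and capitals mark a match to the clock-related elements named below.
Nr1d2, chr14:18239107-18239356: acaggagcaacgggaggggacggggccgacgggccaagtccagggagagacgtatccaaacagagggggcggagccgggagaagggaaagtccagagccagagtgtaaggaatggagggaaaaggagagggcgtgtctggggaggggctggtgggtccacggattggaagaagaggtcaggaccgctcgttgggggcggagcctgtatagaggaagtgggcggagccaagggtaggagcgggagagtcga
Nr1d1, chr11:98775378-98775627: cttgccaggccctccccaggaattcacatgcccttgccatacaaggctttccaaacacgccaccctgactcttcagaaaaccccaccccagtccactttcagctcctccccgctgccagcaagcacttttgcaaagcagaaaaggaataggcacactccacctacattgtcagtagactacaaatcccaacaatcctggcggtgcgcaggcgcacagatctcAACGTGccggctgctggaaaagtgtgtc
Per3, chr4:151044666-151044915: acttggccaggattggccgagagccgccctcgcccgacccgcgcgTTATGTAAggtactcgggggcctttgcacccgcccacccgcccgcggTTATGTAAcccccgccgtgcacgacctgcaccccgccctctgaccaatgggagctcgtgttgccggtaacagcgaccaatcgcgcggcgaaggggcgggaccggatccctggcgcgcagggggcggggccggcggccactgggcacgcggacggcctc
Cry1, chr10:85185055-85185304: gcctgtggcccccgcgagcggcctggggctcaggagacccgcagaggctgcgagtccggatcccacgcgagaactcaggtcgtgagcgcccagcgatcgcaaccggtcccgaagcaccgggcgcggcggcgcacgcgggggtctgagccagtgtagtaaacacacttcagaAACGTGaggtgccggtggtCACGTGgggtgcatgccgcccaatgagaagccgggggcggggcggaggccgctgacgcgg
Both strands of 300-base windows, 250 bases before to 50 after each start, were searched for the E-box CACGTG, the related E′-box CACGTT, the D-box TTATGNAA, the cyclic AMP response element TGACGTCA and the ROR element TAGGTCA. Of 21262 such windows of protein-coding genes 7.84% held the E-box, 4.68% the E′-box, 3.09% the D-box, 2.23% the cyclic AMP element and 2.32% the ROR element. The 8 clock genes had 11 windows, since Clock has 3 listed starts and Per1 has 2. An E-box lay 60 bases before the Cry1 start and 166 bases before the first Per1 start, and an E′-box lay 79, 166 and 28 bases before the starts of Cry1, Cry2 and Nr1d1. Per3 held D-boxes 205 and 158 bases before its start, and Per1 held one at 24 bases. The windows of Clock, Nr1d2 and Dbp held none of the 5 elements, no clock gene window held the cyclic AMP or ROR element, and the matches did not overlap. A match is a description of the letters and no evidence of binding. The 11 windows had a median of 21 CpG dinucleotides and 65.7% G or C, against 13 and 56.3% over all windows.

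Read depth was unknown, and the lists differed in length, the old-labelled one being 3.27 times and the ABC-labelled one 1.37 times as long as the young-labelled one. The score of a summit, read as the −log10 q-value of the authors' peak calling, served for ranking and filtering inside its own list and was not compared between lists. Each count was therefore repeated on equal-length lists, the 33248 highest-scoring summits of each. Of 10 HSC marker genes, 8 had a start summit for young HSC, 10 for old HSC and 6 for old HSC ABC. Slamf1 and Hlf had none in the young- and ABC-labelled lists. Kit and Cd34 had no ABC-labelled start summit, but narrowly, the nearest ABC-labelled summits lying 1300 and 1330 bp from their starts. Of 8 granulocyte genes 3, 7 and 3 had one, of 4 erythroid genes 1, 2 and 2, and of 4 T and NK cell genes 1, 2 and 1. Of 4 stroma and endothelium genes 0, 2 and 1 had one, and of 6 genes of other tissues 0, 3 and 0. The shares over all protein-coding genes were 44.2%, 57.5% and 45.3%. The B cell genes Cd79a, Ebf1 and Pax5 had none in any library. At equal length the HSC counts were 8, 8 and 6 and the granulocyte counts 3, 7 and 3. The erythroid counts were then 1, 1 and 2 and those of T and NK cell genes 1, 2 and 1. Those of stroma and endothelium genes were 0, 0 and 1, and those of genes of other tissues 0, 0 and 0. Of all protein-coding genes 44.2%, 48.4% and 42.6% had one at equal length. Of the granulocyte genes, S100a8, S100a9, Camp and Ngp had start summits at 0.0119%, 0.0285%, 0.126% and 0.393% of the old-labelled list from the top. No gene had a higher-ranked start summit there than S100a8, which lay at 0.132% of the young- and 1.78% of the ABC-labelled list. Retnlg, Mpo and Ltf lay at 3.05%, 14.4% and 25.6% of the old-labelled list, and Elane had none. The 10 HSC markers lay between 3.98% and 70.8% of it. The part of other cells or of list length in the clock gene results was not tested.

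A start summit was present at 6 of the 9 clock genes in the young-labelled library, at 8 in the old-labelled library and at 4 in the ABC-labelled library. Over all protein-coding genes the shares were 44.2%, 57.5% and 45.3%, and over the 17491 genes with a listed start 45.5%, 57.9% and 46.3%. Clock, Cry1 and Cry2 had a start summit in all 3 libraries, as did 39.2% of all genes. Per2, Nr1d1 and Dbp had one in the young- and old-labelled libraries and none in the ABC-labelled one, a pattern of 3.88% of all genes. Nr1d2 had one in the old- and ABC-labelled libraries and none in the young-labelled one (4.39% of all genes). Per3 had one in the old-labelled library alone. Of all genes 14.5% had an old- but no young-labelled one and 13.9% an old- but no ABC-labelled one. The share with both absences was not counted. Per1 had none at its listed starts, as 40.3% of all genes had none in any library. At equal length the same 3 genes were marked in all libraries (37.7% of all genes), Nr1d2 kept its pattern (2.57%), and Per2 alone was marked in the young- and old-labelled lists and not in the ABC-labelled one (4.09%).

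**Figure D1:**
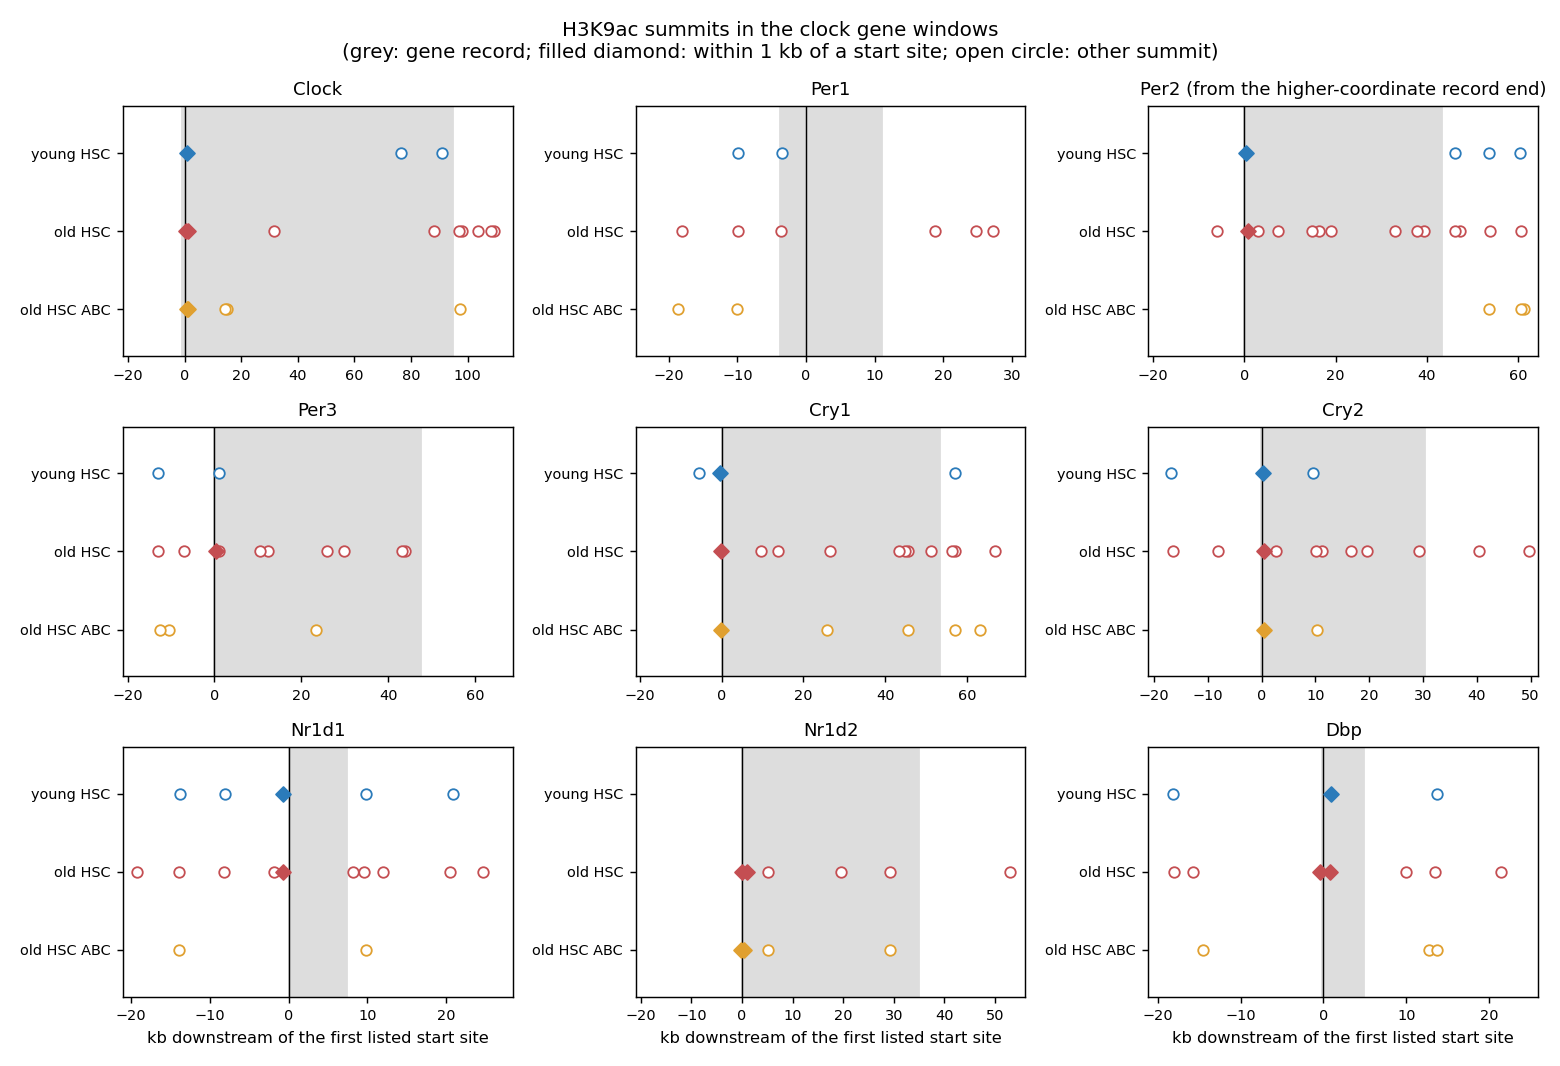
Summits in the windows of the 9 clock genes, by distance in kb downstream of the first listed start site (for Per2, from the record end with the higher coordinate), with 1 row of points per library. Grey is the gene record, filled diamonds are summits within 1 kb of a start site and open circles are other summits. The old-labelled row is the fullest at every gene, the young-labelled row of Nr1d2 is empty, and the ABC-labelled row has no diamond at Per1, Per2, Per3, Nr1d1 or Dbp.

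Between the old- and young-labelled libraries 2 clock genes differed, Per3 and Nr1d2, both with a start summit in the old-labelled library alone of the pair (14.5% of all genes differed this way), and no clock gene differed the other way (1.14% of all genes). At equal length 2 genes stood on each side: Per3 and Nr1d2 with an old-labelled start summit, and Nr1d1 and Dbp with a young-labelled one (6.63% and 2.47% of all genes). Between the old- and ABC-labelled libraries 4 clock genes had an old-labelled start summit and no ABC-labelled one, Per2, Per3, Nr1d1 and Dbp (13.9% of all genes), and none was on the ABC-labelled side (1.67%). At equal length 2 were left, Per2 and Per3 (8.15%), and again none was on the ABC-labelled side (2.42%). Between the young- and ABC-labelled libraries 3 clock genes were on the young-labelled side, Per2, Nr1d1 and Dbp (4.40% of all genes), and 1, Nr1d2, on the ABC-labelled side (5.44%). That split was the same at equal length, where 5.63% and 4.04% of all genes differed. The comparisons share libraries and are not independent. Of the 6 clock genes marked in both the young- and old-labelled libraries, 3 lacked an ABC-labelled start summit, against 9.01% of the 9428 genes marked in both. The young-labelled start summits of these 3, Per2, Nr1d1 and Dbp, lay at 75.7%, 53.8% and 59.2% of their list from the top. Those of Clock, Cry1 and Cry2 lay at 26.6%, 63.3% and 44.1%, and the median over all genes with one was 17.8%. The part of rank in this contrast was not tested. At equal length 4 clock genes were marked in both and 1 of them, Per2, lacked an ABC-labelled one, against 9.81% of 9137 genes.

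The median start summit of the clock genes ranked lower in each list than the median over all genes with a start summit. A rank is given here as a percentage counted from the top of the list, so a small value is a high-scoring summit. In the young-labelled list the highest start summits of the 6 marked clock genes lay between 26.6% and 75.7% of the list, with a median of 56.5%, against a median of 17.8% over the 9678 genes with a start summit. In the old-labelled list the 8 marked clock genes lay between 5.98% and 45.7% with a median of 18.5%, against 6.90%. In the ABC-labelled list the 4 marked clock genes lay between 37.6% and 48.1% with a median of 38.8%, against 15.0%. Ranks of lists of different length do not show a change between libraries.

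**Figure D2:**
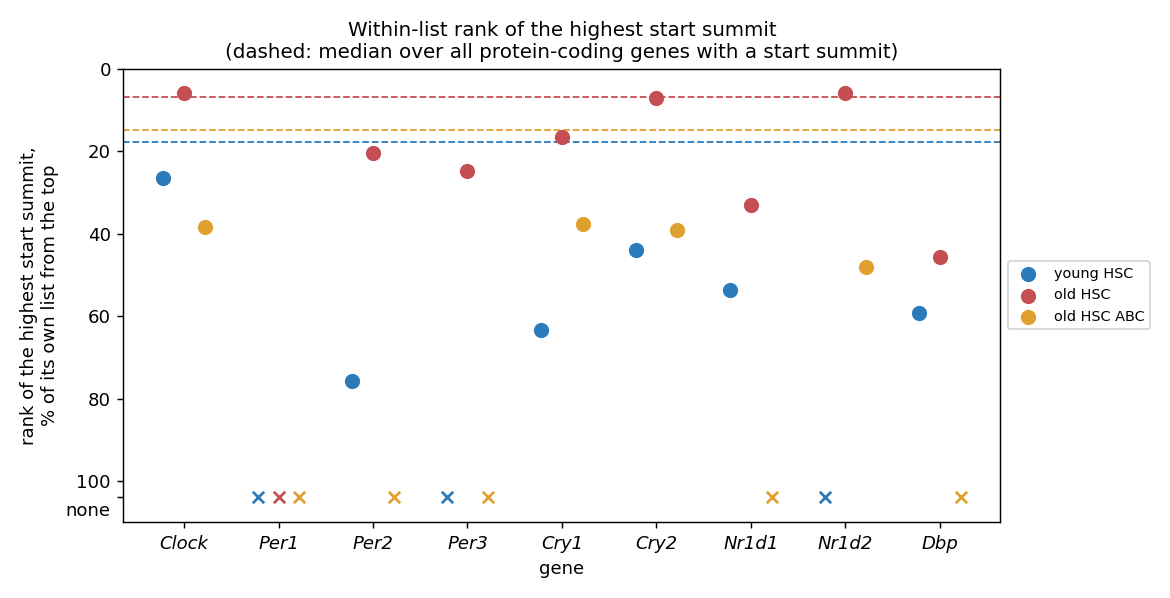
Rank of the highest start summit of each clock gene within its own list, in percent from the top, with 1 point per library. Crosses mark genes with no start summit, and dashed lines the median over all protein-coding genes with one (17.8%, 6.90% and 15.0%). Clock at 6.04% and Nr1d2 at 5.98% of the old-labelled list are the clock genes above the median of their list.

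Clock, the activator of the loop (chromosome 5, 76209868 to 76305603, 95.7 kb), had start summits in all 3 libraries. They lay at 76304018 in the young-labelled list (score 7.47, rank 8844), at 76304229 in the old-labelled list (23.2, rank 6576) and at 76304040 in the ABC-labelled list (4.74, rank 17432). All 3 positions lie between the listed starts at 76303502 and 76304548. A second, weaker start summit was at 76303625 in the old-labelled list and at 76303618 in the ABC-labelled one, 7 bp apart. The young-labelled summit was 22 bp from the ABC-labelled one and 211 bp from the old-labelled one, so the 3 libraries share this site within 500 bp. Elsewhere in the Clock record lay 2 young-labelled, 2 old-labelled and 2 ABC-labelled summits, none of which had a counterpart within 500 bp in another list.

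The Period genes encode the PER repressors. The gene Per1, which responds fast to hormonal and light cues (chromosome 11, 69095108 to 69109965), lacked summits within 1 kb of its listed starts at 69098949 and 69100152. Its record begins 3841 bp before the first of these, and near that upstream end lay a young-labelled summit at 69095397 (score 3.31, rank 22832) and an old-labelled one at 69095319 (15.4, rank 10488), 78 bp apart. The nearest ABC-labelled summit was 6444 bp from the old-labelled one, outside the record and inside Vamp2. With the upstream end of the record counted as a start site, an alternative chosen after seeing the data, Per1 joined Per2, Nr1d1 and Dbp among the genes marked in the young- and old-labelled libraries and not in the ABC-labelled one.

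Per2, a core repressor of the loop (chromosome 1, 91415977 to 91459351), had a weak young-labelled summit at 91458887, 464 bp inside the higher end of its record (score 2.90, rank 25169). The old-labelled list had one 821 bp inside that end at 91458530 (7.95, rank 22155), 357 bp from the young-labelled one. The ABC-labelled list had no summit in the Per2 record, and its nearest lay 10140 bp beyond the lower end. The old-labelled list held 9 summits in the Per2 record, more than in any other clock gene record. Of these 7 were outside the top 33248, in a list of 108787. Those at 91444455, 91451899 and 91456445 also lie in the record of Gm35591, so they cannot be given to Per2 alone. Per3, the third family member (chromosome 4, 150997018 to 151044707), had an old-labelled start summit at 151044347 (6.87, rank 27005), 318 bp downstream of its start. This summit is also within 1 kb of the start of Gm38529, which lies head to head with Per3. A higher-scoring old-labelled summit at 151043519 (8.83) and a young-labelled one at 151043559 (12.2, rank 4463) lay 40 bp apart, 1146 and 1106 bp downstream of the start. The young-labelled library thus missed the 1 kb limit at Per3 narrowly and counted as marked within 2 kb. Its Per3 summit, at 13.4% from the top, was the highest-ranked young-labelled summit inside any clock gene record. The nearest ABC-labelled summit was 10434 bp from the Per3 start.

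The cryptochromes, the partners of PER in repression, were marked at the start in every library. Cry1 (chromosome 10, 85131700 to 85185054) had its start summits before the start site, in or next to the stretch shown above: 275 bp upstream in the young-labelled list (85185329, score 3.54, rank 21045), 94 bp in the old-labelled list (85185148, 9.27, rank 18202) and 107 bp in the ABC-labelled list (85185161, 4.82, rank 17087). The old- and ABC-labelled positions were 13 bp apart. The E-box and E′-box of the Cry1 promoter lie in the same stretch. Inside the Cry1 record lay 0, 7 and 2 summits, and the ABC-labelled one at 85139544 was 93 bp from an old-labelled one. Cry2 (chromosome 2, 92403646 to 92434085) had its old- and ABC-labelled start summits at the same base, 92433662, 407 bp downstream of the start (20.3, rank 7755 and 4.66, rank 17796). The young-labelled one was 45 bp away at 92433707 (4.89, rank 14655). The Cry2 record overlaps the long non-coding RNA D930015M05Rik, which holds the further Cry2 summits at 92424503 (young-labelled) and 92423699 (ABC-labelled), so these cannot be given to Cry2 alone.

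The nuclear receptor genes differed in which libraries marked them. Nr1d1 (chromosome 11, 98767932 to 98775377) had a young-labelled start summit at 98776019 (score 4.11, rank 17899) and an old-labelled one 23 bp away at 98776042 (5.59, rank 36090). They lay 642 and 665 bp upstream of the start, inside the record of the neighbouring long non-coding RNA Gm31862. The nearest ABC-labelled summit was 9857 bp from the start, inside the neighbouring thyroid hormone receptor gene Thra. The record of Nr1d1 itself, which overlaps that of Thra by 1075 bp, held no summit in any library. The old-labelled start summit of Nr1d1 was below the top 33248, where a stronger summit at 98777232 (11.5), 1855 bp upstream, was kept.

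Nr1d2 (chromosome 14, 18204056 to 18239106) had an old-labelled start summit at 18239182, 76 bp upstream of the start (score 23.4, rank 6506). The ABC-labelled one lay 30 bp away at 18239212, 106 bp upstream (4.04, rank 21830). Both positions are inside the Nr1d2 promoter shown above. Further summits of this gene were paired as well: at 18234013 and 18234003, 10 bp apart, and at 18209773 and 18209890, 117 bp apart, in the old- and ABC-labelled lists. The young-labelled list had no summit in the whole 20 kb window, and its nearest was 31144 bp from the start. Nr1d2 was the only clock gene without a young-labelled summit in its window, while all 9 windows held an old-labelled and an ABC-labelled summit. Over all protein-coding genes 72%, 81.7% and 76.1% of windows held a summit. All 4 ABC-labelled summits of the window reached the equal-length list, against 1 of the 6 old-labelled ones. That list keeps 33248 of all 45386 ABC-labelled summits and 33248 of all 108787 old-labelled ones. In the 9 clock gene windows together it kept 21 of 29 and 22 of 84.

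Dbp, an output gene whose transcript swings widely over the day in many tissues (chromosome 7, 45705100 to 45710203), had a young-labelled start summit at 45706169, 922 bp downstream of the start (score 3.82, rank 19692). The old-labelled list had one at 45706061 (4.46, rank 49693), 108 bp from it, and another 433 bp upstream of the start at 45704814 (4.11, rank 54200). Both fell outside the top 33248. From the Dbp start to the closest ABC-labelled summit it was 12761 bp. The strongest summits of this window lay at other genes: at 45718952 for young HSC, 45718763 for old HSC and 45718949 for old HSC ABC (scores 19.3, 20.5 and 6.39) they lay inside the record of the ribosomal protein gene Rpl18, within 1 kb of the starts of Rpl18 and Sphk2. Sphk2, a sphingosine kinase gene, overlaps the end of the Dbp record by 741 bp.

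**Figure D3:**
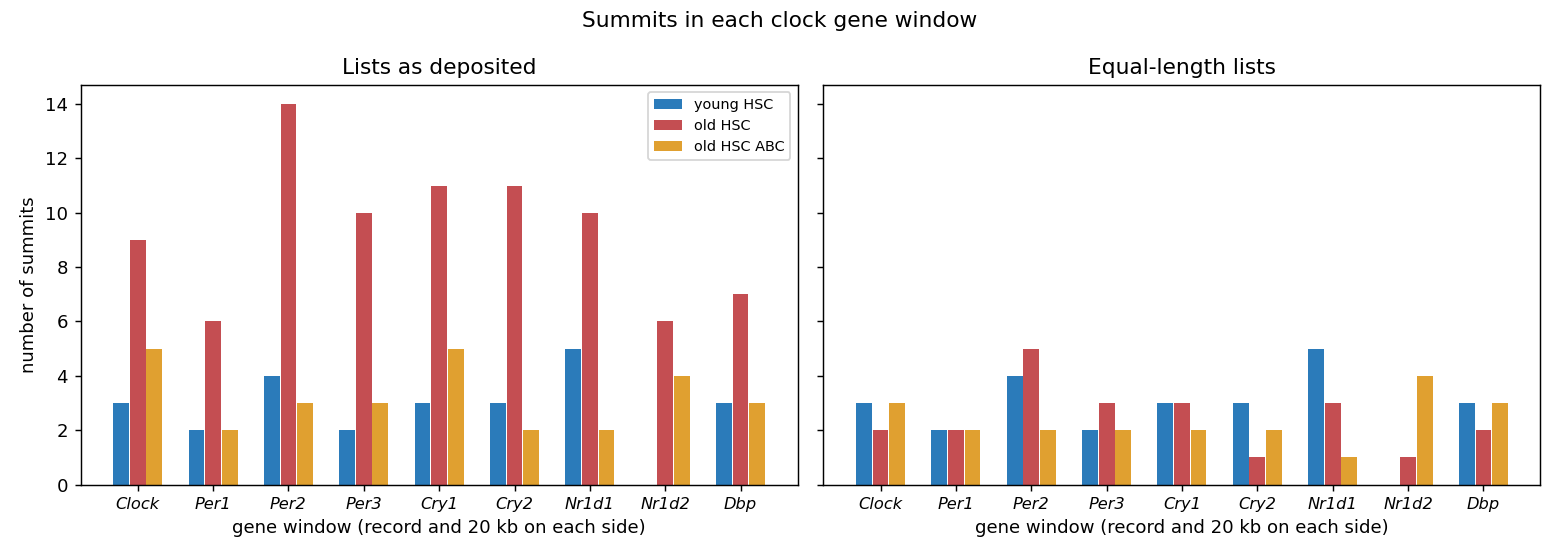
Number of summits in each clock gene window, with 1 bar per library, in the lists as deposited (left) and in equal-length lists (right). As deposited the old-labelled bar is the tallest at all 9 genes, with 14 at Per2, and at equal length it is the tallest at Per2 with 5 and Per3 with 3.

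The windows of the clock genes covered 693.1 kb. Their share of the young-labelled list was 0.0752%, with an exact Clopper-Pearson interval at the 95% level of 0.0487 to 0.111. The share was 0.0772% (0.0616 to 0.0956) for old HSC and 0.0639% (0.0428 to 0.0918) for old HSC ABC, so the intervals, which hold counting error alone, overlapped. The old-labelled windows held 3.36 times as many summits as the young-labelled ones, close to the 3.27 of the whole lists, and the ABC-labelled windows 1.16 times as many, against 1.37. At equal length the windows held 25, 22 and 21 summits. The density was 3.61 summits per 100 kb for young HSC, 12.1 for old HSC and 4.18 for old HSC ABC, against 2.63, 7.36 and 3.39 in the windows of all protein-coding genes together. Young-labelled summits of the clock windows had an old-labelled counterpart within 500 bp in 84.0% of cases and an ABC-labelled counterpart in 44.0%, against 77.4% and 59.0% for the whole list. For ABC-labelled summits the share with an old-labelled counterpart was 62.1% and that with a young-labelled counterpart 41.4%, against 72.4% and 43.5%.

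The highest-ranked summits of the windows lay at neighbouring genes. The best rank in the old- and ABC-labelled windows, 2587 and 1380, was at the vesicle fusion gene Vamp2 beside Per1, and the best young-labelled rank, 1759, was at Rpl18 beside Dbp. Mterf2 beside Cry1, and Vamp3 beside Per3 and Ilkap beside Per2 (both counted by a record end), had start summits in all 3 libraries. Hes6 beside Per2 and Msl1 beside Nr1d1 had one in the young- and old-labelled libraries and none in the ABC-labelled one. Per2 and Nr1d1 themselves had the same pattern in the lists as deposited. Tmem165, whose record ends beside that of Clock, held an old-labelled summit at 76207690 and an ABC-labelled one at 76207642, 48 bp apart. Among the young-labelled summits 6 lay at a clock gene start, 6 at the start of another gene, 5 elsewhere in a clock gene record and 8 elsewhere. The same 4 numbers were 11, 12, 34 and 27 for old HSC and 6, 7, 8 and 8 for old HSC ABC.

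**Figure D4:**
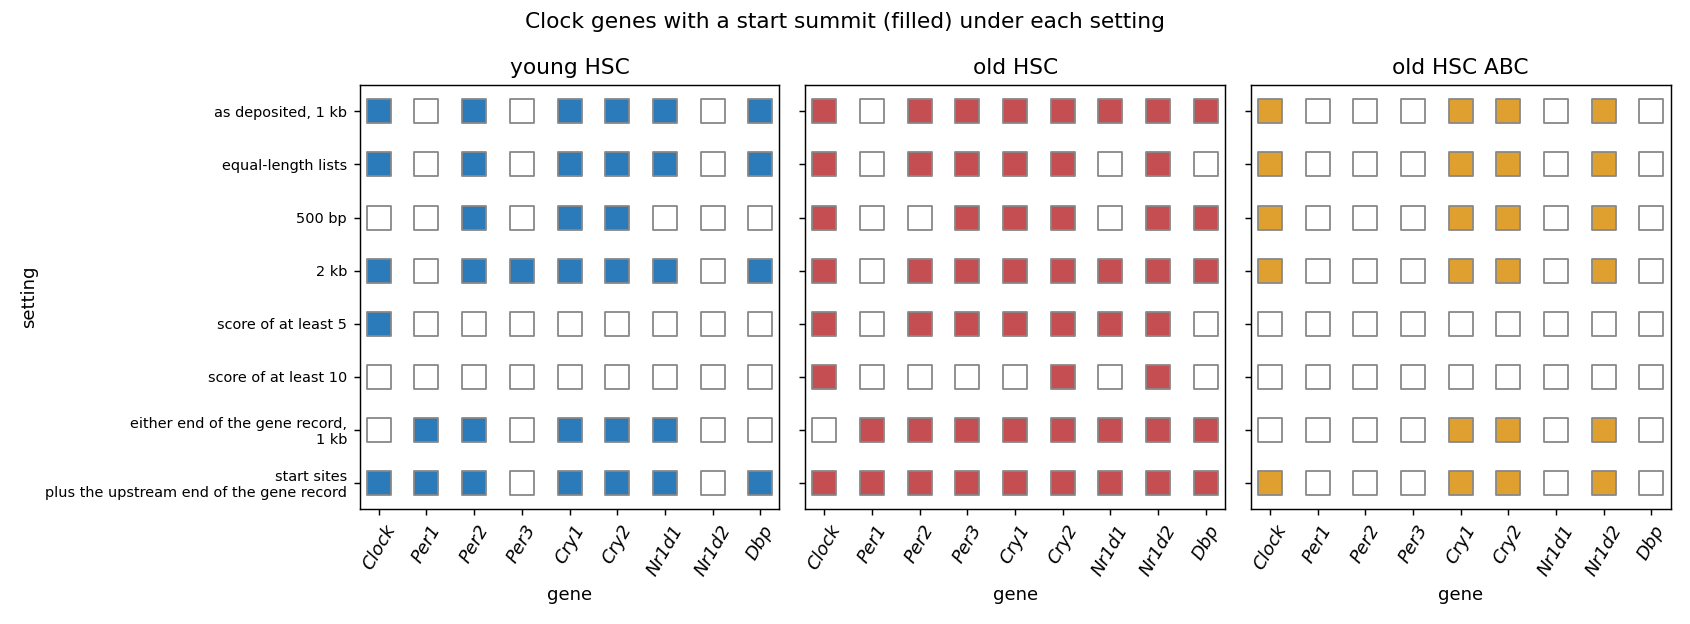
Clock genes with a start summit (filled squares) in each library under each setting of list, window, score and start site, with genes in columns and settings in rows. In every row Nr1d2 is open in the young-labelled panel and Per1, Per2, Per3, Nr1d1 and Dbp are open in the ABC-labelled panel. The row for scores of at least 5 has 1, 7 and 0 filled squares in the 3 panels.

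The definition of a start summit changed the counts of clock genes and the shares of all genes, not always alike. Within 2 kb of a start 7, 8 and 4 clock genes were marked in the young-, old- and ABC-labelled libraries, Per3 being the young-labelled gain (48.3%, 63.4% and 49.9% of all genes). Within 500 bp the numbers were 3, 6 and 4 (33.3%, 44.6% and 34.4%). Counted by either end of the record they were 5, 8 and 3 (41.9%, 56.9% and 43.6%), without Clock, whose record reaches beyond its listed starts. With the upstream end of the record added to the listed starts they were 7, 9 and 4 (45%, 58.5% and 46%). At equal length they were 6, 6 and 4 (44.2%, 48.4% and 42.6%). At scores of at least 5 they were 1, 7 and 0 (36.6%, 50.2% and 35%), the young-labelled gene being Clock. At scores of at least 10 they were 0, 3 and 0 (22.6%, 42.4% and 19.5%), the old-labelled genes being Clock, Cry2 and Nr1d2. Nr1d2 and Clock had the highest-scoring old-labelled start summits of the 9 genes, at 23.4 and 23.2. Nr1d2 had no young-labelled one at any of these settings. No setting reaches the young-labelled summit nearest to Nr1d2, 31144 bp from its start. The genes were chosen after the Nr1d2 summits had been seen, so these values are a description alone.

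Other genes of the clock pathway, 30 in number, were counted in the same way. A start summit was present at 17, 25 and 19 of them in the young-, old- and ABC-labelled libraries, against 44.2%, 57.5% and 45.3% of all genes. At equal length it was present at 17, 19 and 19 (44.2%, 48.4% and 42.6% of all genes). In all 3 libraries 16 were marked (39.2% of all genes), among them the casein kinase gene Csnk1e, which acts on PER proteins. Arntl, the gene of BMAL1, had an old-labelled start summit (39.2% from the top), outside the equal-length list, and its nearest young- and ABC-labelled summits were 10103 and 10068 bp from the start. Its record held 2, 16 and 7 summits. The genes with an old- and an ABC-labelled but no young-labelled start summit in both settings, the pattern of Nr1d2 (4.39% of all genes as deposited and 2.57% at equal length), were Tef, a relative of Dbp, Csnk1d, a further PER kinase, and Nr0b2, a nuclear receptor without a DNA-binding domain. The nearest young-labelled summits were 1083, 1122 and 7937 bp from their starts (for Csnk1d, from a record end), so Tef and Csnk1d missed the 1 kb limit narrowly. Gsk3b, a kinase that acts on several clock proteins, was marked in the young- and old-labelled libraries and not in the ABC-labelled one in both settings (3.88% and 4.09% of all genes), with an ABC-labelled summit at 1711 bp. No start summit in any library was present at 5 of the 30, against 40.3% of all genes. These were the repressor gene Bhlhe41, the ROR receptor genes Rora and Rorb, Timeless and the deubiquitinase gene Usp2. Timeless had an old-labelled summit 1320 bp from its start. The Rora record, which is long (chromosome 9, 68653404 to 69388246), held 15, 57 and 14 summits. These counts were not set against the density over all genes.

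For the 3 clock genes with a start summit in every library, the protein-coding gene with the most similar ranks in the 3 lists was found by the distance between their rank percentages. It was Phf20 for Clock (distance 0.455 percentage points, among 8343 genes), Slc48a1 for Cry2 (2.33) and Tigd3 for Cry1 (3.71). The ranks of Phf20 were 26.3% for young HSC, 6.12% for old HSC and 38.1% for old HSC ABC, against 26.6%, 6.04% and 38.4% for Clock.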

How the data were processed

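Each library had 1 deposited file of 1 bp summits with a score. The deposited score is read here as a −log10 q-value, because each list starts at 1.30, the −log10 of 0.05. The submitters' processing notes name mm10, BWA, Picard, MACS2 and edgeR, with roles, versions, control library and settings not given in the sources used here. Groups follow the labels, and each age comes from the protocol together with the first letter of the title.

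Gene records and start sites came from RefSeq tables of GRCm38.p6. Start sites were listed for 17491 of 21883 protein-coding genes on chromosomes 1 to 19, X and Y. The other 4392 genes, Per2 among them, were counted by either end of their record. Equal-length lists kept the 33248 highest scores. With 1 library per group no test was possible. No source used here gives the read depth.

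The genes and lists were chosen with earlier results of these data known. Named genes were the 9 clock genes, Arntl, pathway genes that differed both as deposited and at equal length or had no start summit in any library, neighbours with a summit at their record, and the gene most like each clock gene marked in all 3 lists. Csnk1e was named as an example after its values were seen. Some listed genes are not reported here by name. Alternatives were windows of 500 bp and 2 kb, either record end, scores of at least 5 and 10, absence within 5 kb, 10 kb or record-only gene windows, and merging within 500 bp. Counting was tested on simulated data. Python 3.11.15, pandas 2.3.3, numpy 2.4.6 and scipy 1.17.1 were used.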

Additional observations from a re-analysis of the deposited data

How the results depend on the processing

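No paired analysis was possible because each group had 1 library. Of 108 recomputed counts that answer a comparison 75 stayed within 1.5 times, and of 162 window counts of single genes 70 did. The number of clock genes with a start summit in the young-labelled library was 3 within 500 bp, 1 at scores of at least 5 and 0 at 10. In the old-labelled library it was 3 at scores of at least 10, and in the ABC-labelled library 0 at both score limits. Pathway genes fell to 7 in the young- and 7 in the ABC-labelled library at scores of at least 10.

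The share of all genes stands in brackets. Clock genes with an old- but no young-labelled start summit numbered 1 within 2 kb (15.5%) and 1 with absence within 5 kb (10.4%), 4 within 500 bp (15.2%) and 6 at scores of at least 5 (14.5%). The reverse numbered 2 at equal length (2.47%) and 1 within 500 bp (3.86%). Those with an old- but no ABC-labelled one numbered 2 at equal length (8.15%), 2 within 500 bp (14.6%) and 7 at scores of at least 5 (16%). Those with a young- but no ABC-labelled one numbered 1 within 500 bp (6.09%), 1 at scores of at least 5 (5.57%) and 0 at 10 (6.23%). Those with an ABC- but no young-labelled one numbered 2 within 500 bp (7.26%) and 0 at scores of at least 5 (4.01%) and 10 (3.14%). The score limits act on lists of unknown depth.

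Summits in the clock gene windows numbered 9, 41 and 12 in the gene records only, 6, 33 and 5 at scores of at least 5, and 4, 11 and 2 at 10, each time in the order young, old and old ABC. The old-labelled number was 22 at equal length.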
